A study of Mus musculus with 16 samples.

Results

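Collagens are secreted proteins built from 3 chains that wind into a triple helix, and each chain has its own gene. Fibrillar collagens form the cables of bone, skin and cartilage, type IV chains form the sheet of basement membranes, type VI chains form beaded filaments around cells, and the fibril-associated collagens with interrupted triple helices (FACIT) sit on fibril surfaces. In marrow and tumors most collagen is known to come from stromal cells such as fibroblasts, osteoblasts and the cells around vessels, and little from blood cells. The collagen genes were taken as the rows of the count table whose identifier maps to a mouse symbol of Col, a number, a and a number, which gave 44 of 55536 rows. They comprise 11 fibrillar, 9 FACIT, 6 basement membrane, 6 beaded filament, 4 transmembrane, 3 network-forming and 2 multiplexin genes, the anchoring fibril gene Col7a1, and Col26a1 and Col28a1.

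Polyadenylated RNA was sequenced from samples labelled MSC, from tumors and from bone marrow of mice carrying a KLF K74R allele and of KLF wild-type (WT) mice. MSC comprised 2 K74R and 2 WT libraries, tumor 3 K74R and 3 WT, and bone marrow 3 K74R and 3 WT. The tumors were of MC38, a mouse colon adenocarcinoma cell line, taken at up to 1000 mm3, so their counts mix transcripts of the line with those of the mouse. The series asks which genes are expressed differently by genotype within a tissue. K74R replaces a lysine with an arginine, the titles call these samples KO, and KLF is the only gene name in the labels, so no gene's own count could be used to check the genotype. Strain, age and sex are not in the labels, the abbreviation MSC is not expanded, and no label gives the replicates separate mice or cultures, so the p-values here reflect only how far these samples spread, and that spread may be technical.

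Library totals ranged from 14067259 to 18923751 counts. A level is given in CPM, a count scaled to the same library total in every sample with TMM factors (trimmed mean of M values), or in CPM per kilobase of exon where genes are compared. In the MSC libraries 4 of 9 osteoblast markers were abundant, Alpl (375 to 831 CPM), Sp7 (85.1 to 179), Runx2 (64.3 to 81.5) and Ibsp (31.7 to 59.9), while Bglap, Bglap2, Dmp1, Phex and Mepe stayed at or below 5.8 CPM. The summed CPM of 7 macrophage markers was also 2350 and 4270 in K74R and 8730 and 6870 in WT. Of 7 chondrocyte markers in MSC, Sox9 ran from 30.1 to 62.9 CPM and Comp had 16.2 and 40.3 CPM in K74R and 77.7 and 105 CPM in WT, Acan, Matn1, Matn3 and Chad stayed at or below 1.01 CPM, and Snorc had no count. In bone marrow 7 erythroid genes summed to 33800 to 43500 CPM. Of 7 epithelial markers in the tumors, Cdh1 ran from 3.76 to 7.7 CPM. Epcam and Krt8 stayed at or below 0.594 and 0.346 CPM, Krt18, Krt19 and Cldn4 at or below 0.163 CPM, and Cdx2 had no count. In bulk RNA, fewer cells of a type and less RNA per cell cannot be told apart.

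MSC held the most collagen RNA and bone marrow the least. Collagen genes took 2.37% and 2.70% of all counts in the K74R MSC libraries, against 1.47% and 1.21% in WT MSC. In tumors the shares were 0.588%, 0.873% and 0.425% in K74R, against 0.938%, 0.919% and 0.683% in WT. In bone marrow they were 0.0572%, 0.0591% and 0.0428% in K74R, against 0.0211%, 0.0551% and 0.0309% in WT. The 3 tissues did not overlap, the genotypes did not overlap in MSC, and they overlapped in tumor and bone marrow.

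**Figure D1:**
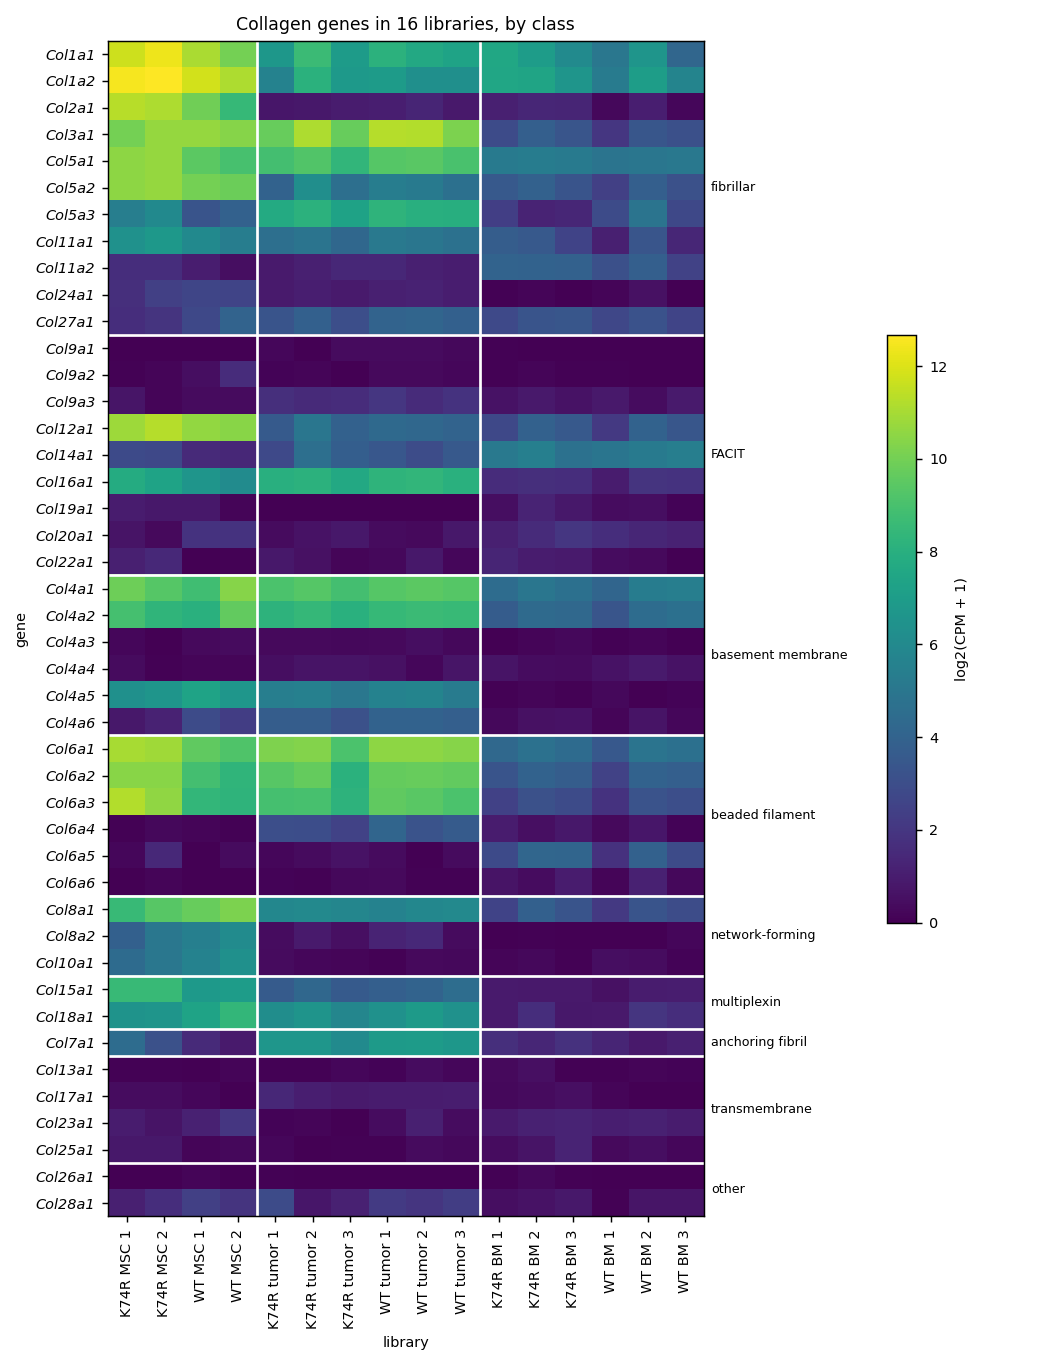
Level of the 44 collagen genes (rows, grouped by class) in the 16 libraries (columns, grouped by tissue with K74R left of WT), coloured by log2(CPM + 1). The brightest cells are Col1a1 and Col1a2 in K74R MSC and Col1a2 in WT MSC 1, and Col1a2 reached 6570 CPM in K74R MSC 2. Col9a1, Col13a1 and Col26a1 stay dark in every library.

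The classes divided that total differently in each tissue. Fibrillar genes took 63.5% ± 4.03 of the summed collagen CPM in K74R MSC and 57.6% ± 11.5 in WT MSC (SD, n = 2 each). In tumors they took 40.2% ± 7.85 in K74R and 40.9% ± 5.69 in WT, and in bone marrow 68.2% ± 8.81 in K74R and 54.1% ± 11.1 in WT (SD, n = 3 each). Tumors gave a larger share to the beaded filament genes of type VI, with 34.3% ± 7.41 in K74R and 37.1% ± 3.00 in WT (SD, n = 3 each). That class took 22.4% and 16.5% in the K74R MSC libraries, against 10.1% and 9.09% in WT MSC, and the genotypes did not overlap. The network-forming genes lay the other way round in MSC, with 1.54% and 2.55% in K74R and 5.99% and 9.94% in WT. These shares are not independent of each other, since they add up to the same total.

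**Figure D2:**
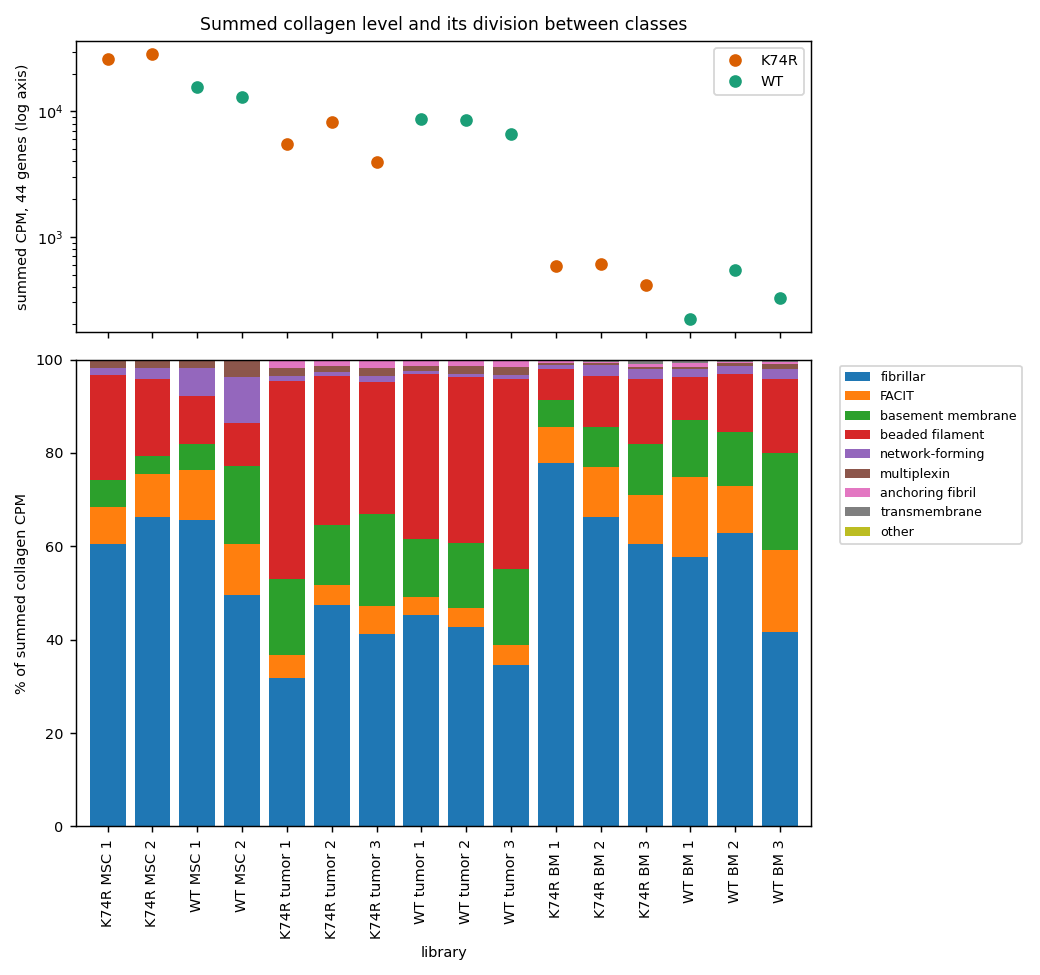
Summed CPM of the 44 collagen genes in each library on a log axis (top; orange K74R, green WT) and its division between collagen classes in percent (bottom). Bone marrow libraries lie between 220 and 604 CPM and MSC libraries between 13100 and 28700 CPM, and the beaded filament share is largest in tumors, at 28.3% to 42.6%.

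Type I collagen, whose chains Col1a1 and Col1a2 make the main fibrils of bone and skin, led MSC and bone marrow but not the tumors. Per kilobase of exon, Col1a1 stood at 652 ± 198 CPM in K74R MSC and 244 ± 116 CPM in WT MSC (SD, n = 2 each), the highest of the 44 in that tissue. Col1a2 followed with 501 ± 38.8 CPM per kilobase in K74R MSC and 237 ± 77.8 in WT MSC (SD, n = 2 each). In bone marrow Col1a1 had 19.3 ± 9.10 CPM per kilobase in K74R and 7.46 ± 6.49 in WT (SD, n = 3 each), again above the other members. Col1a2 followed with 11.9 ± 3.62 CPM per kilobase in K74R bone marrow and 5.97 ± 4.10 in WT bone marrow (SD, n = 3 each). After the type I chains came Col14a1, a FACIT that binds fibril surfaces, with 4.90 ± 1.27 and 5.07 ± 0.921 CPM per kilobase in K74R and WT bone marrow (SD, n = 3 each). With the longest protein-coding transcript in place of all exons, Col1a2 moved above Col1a1 in MSC and in the bone marrow, so the order of these neighbours depends on the length used.

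In the tumors the leading members were Col6a1, a chain of the beaded filaments, and Col3a1, the fibrillar collagen of soft tissue. Per kilobase of exon, Col6a1 had 230.0 ± 93.2 CPM in K74R tumors and 326 ± 21.7 in WT tumors, and Col3a1 had 133 ± 80.6 and 206 ± 74.6 (SD, n = 3 each). Next came Col6a2, Col4a1 and Col5a1, and Col1a1 was the last of the 10 highest, with 32.0 ± 25.6 CPM per kilobase in K74R tumors and 32.6 ± 9.15 in WT tumors (SD, n = 3 each). By the longest coding transcript Col3a1 stood above Col6a1, and the other 8 of the 10 leading genes were the same. Col3a1 per kilobase of coding transcript was 5.87 to 12.8 times Col1a1 in the 6 tumor libraries, 0.330 to 1.34 times in the 4 MSC libraries and 0.0368 to 0.452 times in the 6 bone marrow libraries. K74R tumor 2 stood apart in type I chains, with 403 CPM of Col1a1 against 103 to 281 CPM in the other tumors, and it also had the highest level of the cross-linking enzyme gene Lox, 63.8 CPM against 3.15 to 16.8 CPM.

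Tissue contrasts were made between WT libraries, in a model of all 16. WT MSC against WT bone marrow gave 23 of 39 collagen genes tested higher and 5 lower, 71.8% in all, against 69.5% of 18191 genes (edgeR quasi-likelihood test, Benjamini-Hochberg adjusted). The higher calls made up 59.0% of the collagen genes and the lower calls 12.8%, against 33.5% and 36% of all genes. The median log2 fold change of the members was 4.28, and that of all genes -0.08. Col4a5, a basement membrane chain, had 165 and 100 CPM in WT MSC, against 0.197, 0 and 0.0742 CPM in WT bone marrow (log2 fold change 10.38, SE 0.39, adjusted p = 9.41e-12). Col2a1, the main collagen of cartilage, had 981 and 360 CPM in WT MSC, against 0.197, 1.08 and 0.148 CPM in WT bone marrow (log2 fold change 10.36, SE 0.50, adjusted p = 1.02e-10). Neither gene's libraries came near each other between the tissues. Col3a1 was also higher in WT MSC (log2 fold change 7.76), as was Col10a1, the network-forming collagen of hypertrophic cartilage (7.85). Col8a2, a network-forming chain known from the corneal membrane, had 2 counts in all over the WT marrow libraries and 55.6 CPM over both WT MSC libraries, a ratio of 1230 with a 95% counting interval of 341 to 10200.

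The 5 genes lower in WT MSC than in WT bone marrow were Col14a1, Col11a2, Col6a5, Col4a4 and Col6a6. Col14a1 stood at 1.85 and 1.63 CPM in WT MSC, against 29.4, 35.0 and 42.3 CPM in WT bone marrow (log2 fold change -4.38, SE 0.51, adjusted p = 1.82e-06). Col11a2, a minor fibrillar chain of cartilage, stood at 1.05 and 0.408 CPM in WT MSC, against 7.43, 13.2 and 4.67 CPM in WT bone marrow (log2 fold change -3.54). Col6a5 is a less studied type VI chain and had 0 and 0.272 CPM in WT MSC, against 2.5, 14.5 and 6.38 CPM in WT bone marrow (log2 fold change -5.86). Its marrow libraries spread over several fold, and all lay above the MSC libraries. Col6a6 had no count in WT MSC and 25 counts in WT bone marrow, at least 5.80-fold lower in MSC by a floor of 3 counts over the group. Most of those counts came from WT bone marrow 2, with 2, 20 and 3 in libraries 1, 2 and 3. Col4a4 stayed below 1 CPM in every library of the series and had a log2 fold change of -2.29.

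WT tumor against WT bone marrow gave 25 of 39 collagen genes higher and 6 lower, 79.5% in all, against 72.7% of all genes, of which 36.5% were higher and 36.2% lower. Type VI chains and Col3a1 were among the largest differences. Col6a3 stood at 760, 696 and 535 CPM in WT tumors, against 2.63, 8.47 and 7.34 CPM in WT bone marrow (log2 fold change 6.72, SE 0.39, adjusted p = 6.58e-10). Col3a1 stood at 2500, 2380 and 1170 CPM in WT tumors, against 2.96, 9.68 and 7.42 CPM in WT bone marrow (log2 fold change 8.20, SE 0.57, adjusted p = 5.61e-09). Col4a5 (8.85), Col16a1 (7.06), a FACIT, and Col7a1 (6.58), which anchors basement membranes to the tissue below, were also higher in WT tumors on the log2 fold scale. Col1a2 was not called (log2 fold change 0.31, adjusted p = 0.603), although Col1a1 was (log2 fold change 2.1, adjusted p = 0.0064). Lower in WT tumors were Col6a5 (-5.33), Col11a2 (-2.75), Col6a6 (-2.15), Col14a1 (-2.02), Col20a1 (-2.01) and Col19a1 on that scale. Of these Col6a6 lay at the threshold (edgeR adjusted p = 0.0498) and lost the call in 6 of 12 other settings. Col19a1 had no count in any of the 6 tumor libraries and 12 counts in WT bone marrow, at least 5.18-fold lower in WT tumors.

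WT MSC against WT tumor split the family by direction, with 15 of 39 higher in MSC and 12 lower, 69.2% in all, against 66% of all genes, of which 31.9% were higher and 34.1% lower. Both tissues held large amounts of collagen, and the members differed. Col2a1 stood at 981 and 360 CPM in WT MSC, against 1.06, 1.48 and 0.798 CPM in WT tumors (log2 fold change 9.21, SE 0.45, adjusted p = 2.94e-10). Col12a1, a FACIT of tendon and bone surfaces, stood at 1570 and 1370 CPM in WT MSC, against 19.2, 18 and 15.3 CPM in WT tumors (log2 fold change 6.40, SE 0.51, adjusted p = 3.68e-08). Col10a1 (8.49), Col8a2 (5.61), Col1a2 (4.97) and Col5a2 (4.86) were higher in WT MSC as well. Col19a1 had 14 counts in WT MSC and none in WT tumors, at least 8.69-fold higher in MSC.

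Lower in WT MSC than in WT tumors were Col7a1, Col6a4, Col5a3 and the main type VI chains. Col7a1 stood at 1.85 and 0.884 CPM in WT MSC, against 121, 122 and 105 CPM in WT tumors (log2 fold change -6.37, SE 0.44, adjusted p = 9.19e-09). Col5a3, a minor type V chain that joins type I fibrils, stood at 8.78 and 14.1 CPM in WT MSC, against 298, 256 and 243 CPM in WT tumors (log2 fold change -4.54, SE 0.61, adjusted p = 9.5e-06). Col6a4, a type VI chain, had 3 counts in WT MSC and 701 in WT tumors, a ratio of 126 in favour of the tumors with a 95% counting interval of 42.8 to 610. Col17a1, a transmembrane collagen of skin attachment, also had 3 counts in WT MSC, and tumors were higher by a ratio of 10 (interval 3.26 to 50.1). Col22a1 was called lower with 1 count in WT MSC and 22 in WT tumors, a ratio of 11.8 in favour of the tumors (interval 1.91 to 488), and with K74R libraries in place of WT its log2 fold change was 1.71. For Col3a1 the log2 fold change was -0.44 (adjusted p = 0.417), for Col4a1 it was 0.39 (0.382) and for Col5a1 it was -0.03 (0.902).

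**Figure D3:**
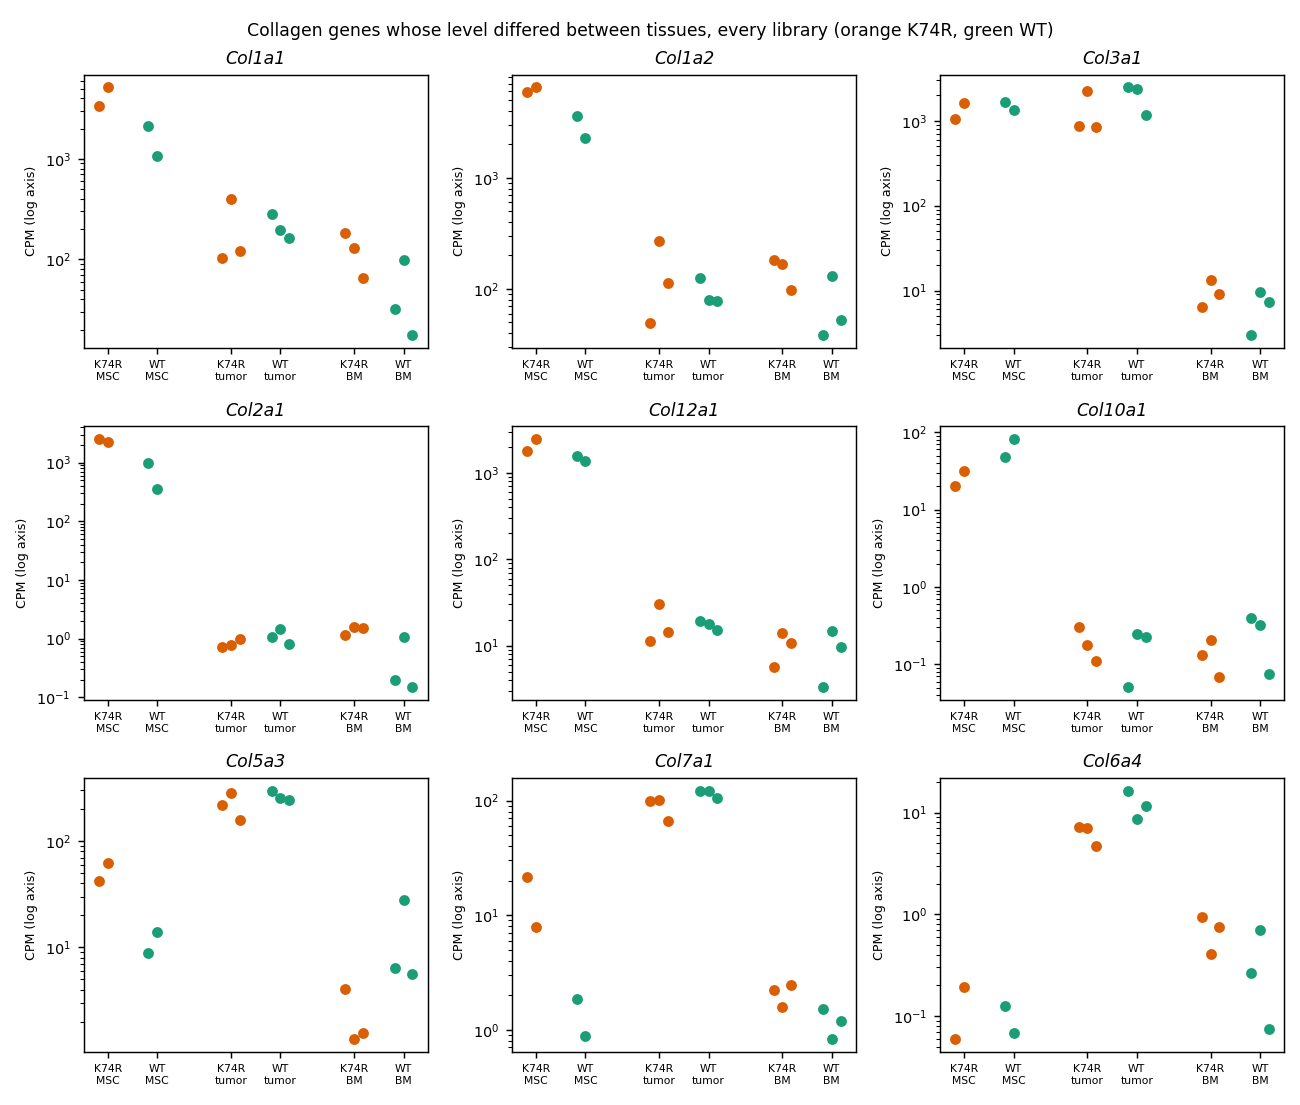
CPM of 9 collagen genes in every library on log axes, by tissue with K74R (orange) left of WT (green). Col2a1, Col12a1 and Col10a1 are high in all 4 MSC libraries, Col7a1, Col5a3 and Col6a4 are highest in all 6 tumor libraries, and Col3a1 is high in both tissues, at 845 to 2500 CPM.

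Ratios between chains of 1 type were steady for some types and not for others. Col4a1 and Col4a2 form the common network of basement membranes and are transcribed in opposite directions from starts that RefSeq places 21 bases apart on chromosome 8. The stretch is shown because the pair was the most evenly balanced of those examined, and capitals mark the bases from one start to the other, chr8:11312801-11312830 on GRCm38.p6, plus strand.
Col4a1 and Col4a2: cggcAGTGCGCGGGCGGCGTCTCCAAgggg
Per kilobase of coding transcript Col4a1 was 1.34 to 1.95 times Col4a2 in all 16 libraries, while the level of Col4a1 itself ran from 16.8 to 1310 CPM. Col4a3 and Col4a4, another pair with starts 72 bases apart on chromosome 1 of GRCm38, stayed at or below 0.396 and 0.891 CPM. The annotated genes Col4a1 and Col4a2 overlap on opposite strands, as do Col10a1 and Nt5dc1, and Col20a1 overlaps another gene on its own strand. Reads there could be split between the genes, and no source used here states the strand setting of the counting.

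The type I and type VI chains were less even. Col1a1 over Col1a2 per kilobase of coding transcript was 0.514 and 0.714 in K74R MSC and 0.532 and 0.423 in WT MSC, but 1.89, 1.34 and 0.982 in K74R tumors and 2.03, 2.24 and 1.90 in WT tumors. Both chains belong to the same triple helix, and only the tumor libraries reached ratios above 1. Col6a1 over Col6a2 stayed between 1.54 and 2.45 in all libraries. Col6a3 over Col6a1 was 0.466 and 0.338 in K74R MSC, against 0.179 and 0.210 in WT MSC, and 0.100 to 0.218 in the other 12 libraries. The K74R MSC libraries thus lay above all others in the share of the Col6a3 chain.

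K74R against WT MSC gave the only collagen genes called between the genotypes. Of 33 members tested, 6 rose in K74R MSC and none fell, 18.2%, against 3.34% of 14475 genes called and 2.05% called higher, with p-values from the edgeR quasi-likelihood test, Benjamini-Hochberg adjusted. The risen genes were the 3 main chains of type VI, Col6a1, Col6a2 and Col6a3, with Col5a3, Col15a1 and Col22a1. The median log2 fold change of the 33 members was 0.89, and that of all genes 0.00. At an unadjusted p under 0.05, 17 members were higher and 7 lower, against 13.5% and 12.5% of all genes. Libraries of the genotypes did not overlap for 19 members that were higher and 11 that were lower, against 29.7% and 29.5% of all genes with 2 libraries a group.

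Type VI collagen links cells to the surrounding matrix. Col6a3 (ENSMUSG00000048126, chromosome 1, 90765923 to 90843971, minus strand, GRCm38) stood at 2410 and 1540 CPM in K74R MSC, against 337 and 298 CPM in WT MSC (log2 fold change 2.63, SE 0.31, adjusted p = 0.025). Col6a2 (ENSMUSG00000020241, chromosome 10, 76595762 to 76623630, minus strand) stood at 1370 and 1360 CPM in K74R MSC, against 469 and 315 CPM in WT MSC (log2 fold change 1.80, SE 0.28, adjusted p = 0.0375). Its neighbour Col6a1 (ENSMUSG00000001119, chromosome 10, 76708792 to 76726168, minus strand) stood at 2100 and 1850 CPM in K74R MSC, against 764 and 577 CPM in WT MSC (log2 fold change 1.56, SE 0.26, adjusted p = 0.0441). For all 3 chains both K74R libraries lay above both WT libraries. The other type VI chains, Col6a4, Col6a5 and Col6a6, did not pass the filter on low counts in MSC and stayed at or below 1.74 CPM.

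Col5a3 (ENSMUSG00000004098, chromosome 9, 20770050 to 20815067, minus strand) stood at 42.0 and 62.8 CPM in K74R MSC, against 8.78 and 14.1 CPM in WT MSC (log2 fold change 2.20, SE 0.33, adjusted p = 0.0361). The other type V chains were higher without passing: Col5a1 had 1470 and 1620 CPM in K74R MSC against 709 and 501 CPM in WT MSC (log2 fold change 1.35, adjusted p = 0.0572), and Col5a2 had 1470 and 1620 CPM against 1050 and 899 CPM (0.67, adjusted p = 0.149). Col15a1 (ENSMUSG00000028339, chromosome 4, 47208161 to 47313167, plus strand), a multiplexin found at basement membranes of vessels and muscle, stood at 377 and 372 CPM in K74R MSC, against 112 and 130 CPM in WT MSC (log2 fold change 1.63, SE 0.19, adjusted p = 0.025). Its close relative Col18a1, the source of endostatin, had 91.5 and 95.7 CPM in K74R MSC against 163 and 338 CPM in WT MSC and was not called (log2 fold change -1.42, adjusted p = 0.0868). Col22a1 (ENSMUSG00000079022, chromosome 15, 71795795 to 72034227, minus strand), a FACIT of tissue junctions, was scarce, with 20 and 27 counts in K74R MSC against 0 and 1 in WT MSC. Its fitted adjusted p was 0.0486, and the ratio of K74R over WT was 44.8 with a 95% counting interval of 7.66 to 1810.

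**Figure D4:**
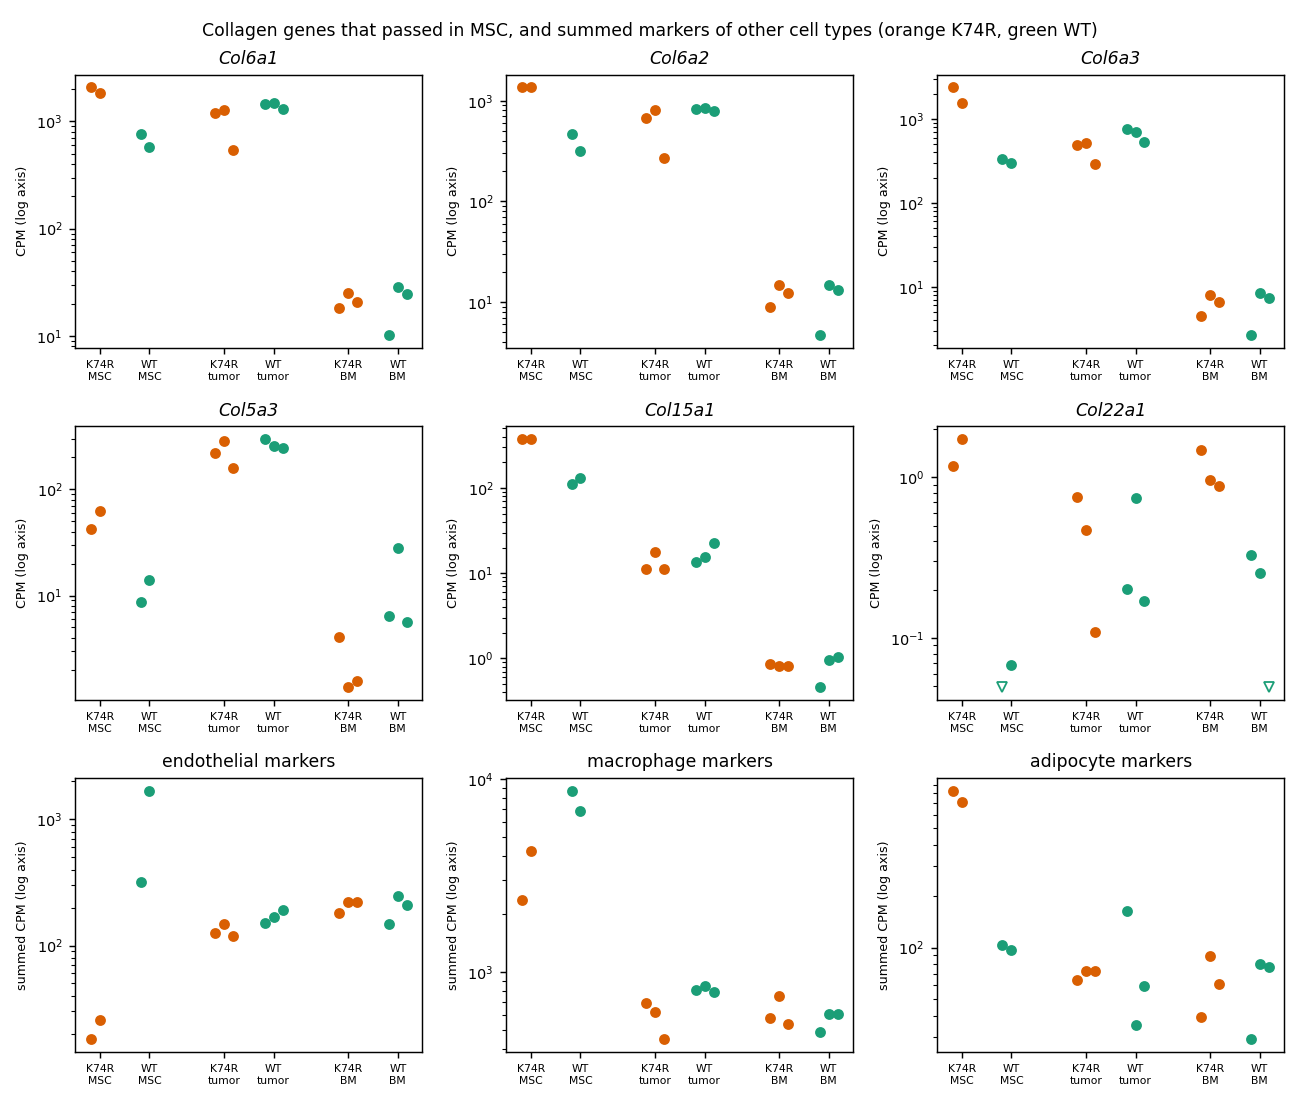
CPM of the 6 collagen genes called in MSC, and summed CPM of endothelial, macrophage and adipocyte markers, in every library on log axes, with K74R (orange) left of WT (green); open triangles mark a count of 0. Col6a3 reached 2410 and 1540 CPM in K74R MSC against 337 and 298 CPM in WT MSC, and the endothelial sum was 18.1 and 25.7 CPM in K74R MSC against 317 and 1690 CPM in WT MSC.

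The 250 bases before the RefSeq start of the risen genes are shown because these members moved together, and RefSeq windows were at hand for 5 of the 6. They come from the RefSeq promoters of GRCm38.p6, and for Col6a2, which has more than one start there, the window that ends at its GENCODE start is shown. Each is written 5′ to 3′ on the strand of the gene. Capitals mark matches, on either strand, to TATAAA (the TATA box), to CCAAT (the CCAAT box), to GGGCGG (the GC box) and to CCCTCCC (a pyrimidine run), motifs picked after the sequences had been read, and matches may overlap. The windows are chr10:76726045-76726294 (minus) for Col6a1, chr10:76623631-76623880 (minus) for Col6a2, chr1:90843972-90844221 (minus) for Col6a3, chr9:20815068-20815317 (minus) for Col5a3 and chr4:47207762-47208011 (plus) for Col15a1.
Col6a1: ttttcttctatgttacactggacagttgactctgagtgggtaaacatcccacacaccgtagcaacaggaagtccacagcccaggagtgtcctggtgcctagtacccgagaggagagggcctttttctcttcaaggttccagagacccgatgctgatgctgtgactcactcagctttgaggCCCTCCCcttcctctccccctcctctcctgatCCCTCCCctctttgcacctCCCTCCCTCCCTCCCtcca
Col6a2: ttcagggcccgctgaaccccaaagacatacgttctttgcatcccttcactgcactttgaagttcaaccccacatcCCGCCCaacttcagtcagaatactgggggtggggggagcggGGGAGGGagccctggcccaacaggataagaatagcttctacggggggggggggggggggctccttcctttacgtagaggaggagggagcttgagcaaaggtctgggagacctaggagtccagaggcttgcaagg
Col6a3: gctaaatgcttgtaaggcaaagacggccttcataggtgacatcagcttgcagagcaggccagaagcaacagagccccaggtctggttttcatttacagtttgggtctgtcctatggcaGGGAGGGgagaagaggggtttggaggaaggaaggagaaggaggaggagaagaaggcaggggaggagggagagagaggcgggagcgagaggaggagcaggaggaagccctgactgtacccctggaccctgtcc
Col5a3: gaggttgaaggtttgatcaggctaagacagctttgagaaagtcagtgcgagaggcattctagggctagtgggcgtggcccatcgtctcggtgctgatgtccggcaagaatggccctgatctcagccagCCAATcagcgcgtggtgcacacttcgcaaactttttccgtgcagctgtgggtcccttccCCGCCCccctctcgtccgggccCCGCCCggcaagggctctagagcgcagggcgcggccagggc
Col15a1: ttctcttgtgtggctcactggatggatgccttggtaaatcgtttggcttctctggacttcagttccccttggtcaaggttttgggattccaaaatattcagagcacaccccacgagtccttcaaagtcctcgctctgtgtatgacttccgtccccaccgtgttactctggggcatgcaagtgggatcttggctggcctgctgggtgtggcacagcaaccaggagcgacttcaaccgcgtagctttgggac
CCCTCCC had 5 matches, some overlapping, in the window of Col6a1 and 1 each in those shown of Col6a2 and Col6a3. The windows of Col5a3 and Col15a1 had none. The GENCODE start of Col6a1, at 76726168, lies inside its window, and all 5 matches lie past that start, within the annotated gene. The other RefSeq window of Col6a2, not shown, held 2 matches to CCCTCCC and 3 to GGGCGG. It occurred in 18 of 38 collagen windows from 35 genes (47.4%), against 19.8% of 32544 windows of all genes. GGGCGG occurred in 57.9% of the collagen windows and 33.0% of all, CCAAT in 34.2% and 33.8%, and TATAAA in 13.2% and 12.3%. The window of Col15a1 held none of the 4 motifs. A match describes the letters and is not evidence of a bound factor.

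Several other collagen genes in MSC lay just outside the threshold. Col7a1 had 21.6 and 7.81 CPM in K74R MSC against 1.85 and 0.884 CPM in WT MSC (log2 fold change 3.41, SE 0.64, adjusted p = 0.0529). Col14a1 had 6.21 and 5.68 CPM against 1.85 and 1.63 CPM (1.76, adjusted p = 0.0536). On the other side, Col4a6 had 0.769 and 1.29 CPM in K74R MSC against 6.49 and 4.01 CPM in WT MSC (-2.35, adjusted p = 0.0577), and Col20a1 had 0.592 and 0.258 CPM against 2.60 and 2.65 CPM (-2.59, adjusted p = 0.0584). None of these 4, which were picked by their small p-values, overlapped between the genotypes. That held for 29.7% of all genes upward and 29.5% downward. The abundant type I chains also had higher values, Col1a1 with 3360 and 5200 CPM in K74R MSC against 2140 and 1060 CPM in WT MSC (1.42, adjusted p = 0.123). Col1a2 had 5890 and 6570 CPM against 3630 and 2260 CPM (1.08, adjusted p = 0.127), and Col2a1 had 2550 and 2230 CPM against 981 and 360 CPM (1.83, adjusted p = 0.0995). Members of the network-forming class had lower values, such as Col10a1 with 20.4 and 31.2 CPM in K74R MSC against 47.9 and 82.3 CPM in WT MSC (-1.33, adjusted p = 0.0893), and Col8a1 with 370 and 670 CPM against 841 and 1150 CPM (-0.94, adjusted p = 0.169). Col3a1 and Col4a1 overlapped, with log2 fold changes of -0.15 and -0.14. The 11 members not tested in MSC (Col4a3, Col4a4, Col6a4, Col6a5, Col6a6, Col9a1, Col9a2, Col9a3, Col13a1, Col17a1 and Col26a1) ran from 0 to 2.04 CPM.

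These calls rested on few libraries. Without K74R MSC 1 no collagen gene was called, nor any other gene. Without WT MSC 2 most of the 6 lost their calls, and without K74R MSC 2 some of them did. The log2 fold changes of the 6 genes were positive in each of the 4 fits without 1 MSC library. In these fits the group left with 1 library is assumed to vary like the other. DESeq2 called 20 of 33 members (60.6%, against 13.2% of all genes in that fit). The model of all 16 libraries called 17 of 39 (43.6%, against 24.4%), and the 6 were included in both. Scaling by library size alone left 4 of 33 called (12.1%, against 2.39%).

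Markers of other cell types moved with the MSC result. Of all genes tested in MSC, 1.29% were called lower in K74R and 2.05% higher. Of 8 endothelial markers 6 were called lower in K74R MSC, among them Pecam1 with 3.67 and 2.97 CPM against 105 and 567 CPM in WT MSC. The summed CPM of the 8 was 18.1 and 25.7 in K74R MSC and 317 and 1690 in WT MSC, so the WT libraries also differed from each other. Of 7 macrophage markers C1qa was called lower, with 240 and 286 CPM in K74R MSC and 736 and 587 CPM in WT MSC. Of 6 adipocyte markers Plin1 and Fabp4 were called higher, and their list summed to 830 and 715 CPM in K74R MSC and 104 and 96.8 CPM in WT MSC. No tested member of the lists of 9 osteoblast, 11 fibroblast and 6 pericyte and smooth muscle markers was called, with sums in K74R MSC of 801 and 1140, 672 and 575, and 2080 and 2330 CPM, against 583 and 559, 466 and 703, and 1880 and 3170 CPM in WT MSC. Their part in the collagen result was not tested.

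Among the genes that modify, fold and cross-link collagen, 1 was called between the genotypes in any tissue. It was called in MSC, where 3.34% of all genes were called. Loxl4, a lysyl oxidase that cross-links fibrils, rose to 51.6 and 24.3 CPM in K74R MSC, against 7.11 and 8.84 CPM in WT MSC (log2 fold change 2.25, SE 0.40, adjusted p = 0.0487). It was the only 1 of 5 cross-linking genes called, and it lost the call in 8 of 15 other settings. Lox, another of them, had 5700 and 5880 CPM in K74R MSC against 3830 and 3080 CPM in WT MSC (0.74, adjusted p = 0.172). Serpinh1, the collagen chaperone HSP47, had 1830 and 1320 CPM against 647 and 942 CPM (0.99, adjusted p = 0.117). P4ha1, a prolyl hydroxylase, and Sparc, a collagen-binding matrix protein, had log2 fold changes of 0.58 and 0.45 (adjusted p = 0.262 and 0.399). No tested member of the lists of 14 hydroxylation, 12 folding and secretion, 8 propeptide removal, 12 fibril-binding matrix, 10 receptor and 8 profibrotic genes was called in MSC, and no gene of these lists or of cross-linking was called in tumor or bone marrow. For Serpinh1, P4ha1, Lox and Sparc the log2 fold changes were 0.05, 0.13, 1.41 and 0.03 in tumor and 0.13, 0.03, 0.19 and 0.34 in bone marrow. At an unadjusted p under 0.05 in MSC, 13.5% of all genes tested were higher and 12.5% lower. At that threshold 4 hydroxylation genes were higher and 1 lower, and 5 folding and secretion genes were higher and 0 lower. Of the propeptide removal genes 3 were higher and 2 lower, and of the cross-linking genes 3 were higher and 0 lower. Near the threshold, and chosen after their values were seen, were the propeptide removal genes Adamts14 (log2 fold change 2.25, adjusted p = 0.0541) and Pcolce2 (2.53, adjusted p = 0.0584), the prolyl hydroxylase gene P4ha2 (1.34, adjusted p = 0.0613) and Loxl1 (1.22, adjusted p = 0.0625). In MSC the list medians ran from -0.38 for the profibrotic genes to 0.87 for the cross-linking genes.

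**Figure D5:**
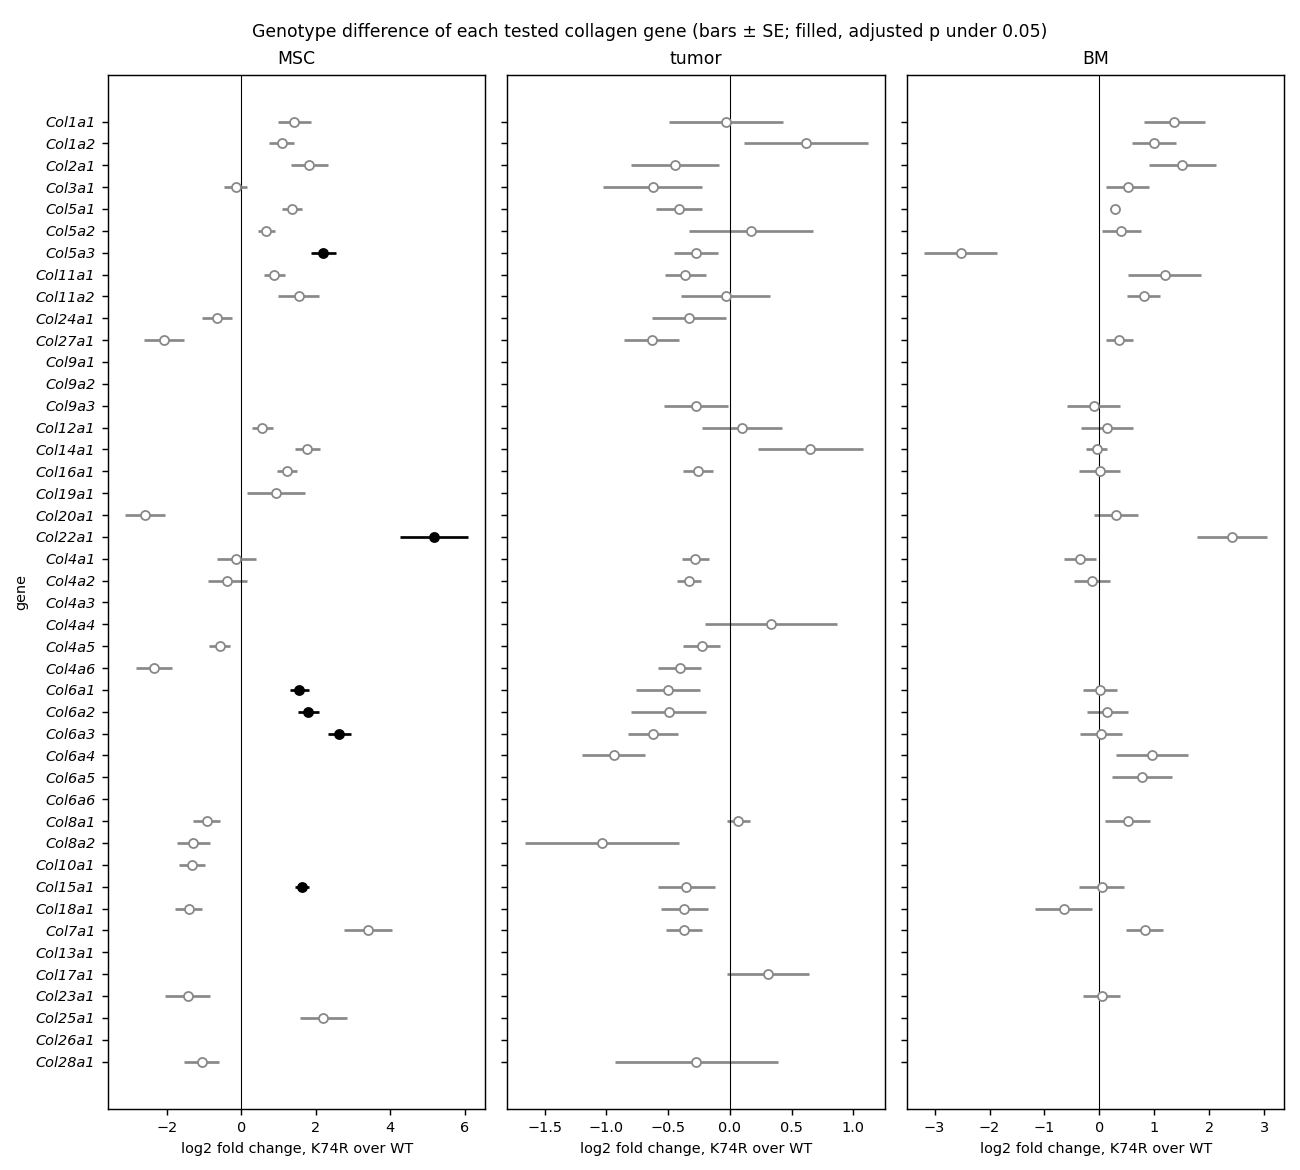
Log2 fold change of K74R over WT for each tested collagen gene (points, with bars of ± SE) in MSC, tumor and bone marrow, each panel with its own scale; filled points passed an adjusted p of 0.05. The 6 filled points are all in MSC, 24 of 31 points in tumor lie below 0, and 22 of 28 in bone marrow lie above it.

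K74R against WT tumor gave no collagen call among 31 members tested, against 0.0406% of 14779 genes called, all of them lower. The values leaned downward: 24 members had a negative log2 fold change (77.4%, against 48.8% of all genes) and 7 a positive one (22.6%, against 51.2%), and their median was -0.33, against 0.00 over all genes. At an unadjusted p under 0.05, 7 were lower and 0 higher, against 6.19% and 5.05% of all genes, and DESeq2 called 1, Col6a4, lower. Col6a4 had 7.26, 7.01 and 4.73 CPM in K74R tumors, against 16.4, 8.61 and 11.5 CPM in WT tumors (log2 fold change -0.94, SE 0.26, adjusted p = 0.317). Col6a3 had 486, 515 and 290 CPM in K74R tumors, against 760, 696 and 535 CPM in WT tumors (-0.63, adjusted p = 0.353). Col4a2 had 295, 347 and 262 CPM against 363, 406 and 370 CPM (-0.33, adjusted p = 0.34), and Col4a1 had 539, 646 and 470 CPM against 650, 723 and 644 CPM (-0.28, adjusted p = 0.395).

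All K74R tumor libraries lay below all WT tumor libraries for 6 members (Col4a2, Col4a6, Col6a1, Col6a3, Col6a4 and Col7a1) and above them for none, against 8.8% and 7.5% of all genes. For Col4a1 K74R tumor 2, at 646 CPM, lay above WT tumor 3, at 644 CPM, so the groups overlapped. Col27a1, a fibrillar collagen of growth cartilage, had 8.68, 14 and 7.18 CPM in K74R tumors against 15.6, 16.6 and 13.9 CPM in WT tumors (-0.63, adjusted p = 0.379). The fitted log2 fold changes of the type I chains did not share the lean, at -0.03 for Col1a1 and 0.61 for Col1a2. K74R tumor 2 stood highest in both. Col1a1 had 103, 403 and 122 CPM in K74R tumors 1, 2 and 3, against 281, 198 and 164 CPM in WT tumors. Col1a2 had 49.1, 271 and 112 CPM in K74R tumors, against 125, 79.8 and 77.8 CPM in WT tumors. Macrophage markers summed to 693, 616 and 448 CPM in K74R tumors and 805, 850 and 790 CPM in WT tumors without a call, and fibroblast markers to 548, 902 and 407 CPM against 741, 890 and 543 CPM. Endothelial markers summed to 126, 149 and 120 CPM in K74R tumors and 152, 169 and 191 CPM in WT tumors, and pericyte and smooth muscle markers to 49.7, 50.1 and 35.8 CPM against 56.4, 68.7 and 64.7 CPM, without a call. The macrophage, endothelial and pericyte sums did not overlap between the genotypes. K74R tumor 3 was lowest in Col6a1 (540 CPM), Col6a2 (272 CPM) and in all 4 marker sums. Their part in the collagen values was not tested. The 13 members not tested in tumors (Col4a3, Col6a5, Col6a6, Col9a1, Col9a2, Col10a1, Col13a1, Col19a1, Col20a1, Col22a1, Col23a1, Col25a1 and Col26a1) ran from 0 to 1.19 CPM.

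K74R against WT bone marrow gave no collagen call among 28 members tested, against 0.773% of 14872 genes called. Here the values leaned upward, with 22 positive log2 fold changes (78.6%, against 49.9% of all genes) and a median of 0.29, against 0.00 over all genes. At an unadjusted p under 0.05, 7 members were higher and 1 was lower, against 9.8% and 7.99% of all genes, and DESeq2 called 0. Col1a1 had 185, 130 and 65.7 CPM in K74R bone marrow, against 31.9, 97.4 and 17.5 CPM in WT bone marrow (log2 fold change 1.36, SE 0.55, adjusted p = 0.24). Col2a1 had 1.14, 1.58 and 1.5 CPM against 0.197, 1.08 and 0.148 CPM (1.51, adjusted p = 0.242). Col11a2 had 15.5, 14.8 and 14.3 CPM against 7.43, 13.2 and 4.67 CPM (0.81, adjusted p = 0.209). Col5a1 differed by a small amount that exceeded its spread, with 34.6, 39.2 and 36.6 CPM in K74R bone marrow against 28.9, 30.1 and 32.3 CPM in WT (0.28, SE 0.09, adjusted p = 0.172).

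Col5a3 went the other way, with 4.03, 1.37 and 1.57 CPM in K74R bone marrow against 6.44, 28.1 and 5.64 CPM in WT bone marrow (-2.53, SE 0.67, adjusted p = 0.124). WT bone marrow 2 stood far above the rest for this gene. Libraries did not overlap for 5 members that were higher (Col2a1, Col5a1, Col7a1, Col11a2 and Col22a1) and for Col5a3, which was lower, against 11.6% and 10.8% of all genes. Without WT bone marrow 2, which had the most type I collagen of the WT libraries, 5 of 29 members were called higher (17.2%, against 4.49% of all genes called in that fit): Col1a1, Col1a2, Col2a1, Col11a1 and Col11a2. WT bone marrow 1 was lowest in the summed osteoblast (102 CPM) and marrow stroma (376 CPM) markers, whose K74R sums were 143, 174 and 165 and 559, 963 and 834 CPM. The other WT libraries had 217 and 150 CPM of osteoblast and 1090 and 865 CPM of marrow stroma markers. Their part in the collagen values was not tested. The 16 members not tested in bone marrow (Col4a3, Col4a4, Col4a5, Col4a6, Col6a6, Col8a2, Col9a1, Col9a2, Col10a1, Col13a1, Col17a1, Col19a1, Col24a1, Col25a1, Col26a1 and Col28a1) ran from 0 to 1.44 CPM, and 6 members (Col4a3, Col6a6, Col9a1, Col9a2, Col13a1 and Col26a1) were tested in no tissue.

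Interaction contrasts in the model of all 16 libraries compared the genotype effect between tissues. The effect in MSC minus that in tumor was called for 12 of 39 collagen genes, 10 higher and 2 lower (30.8%, against 10.6% of all genes, 6.48% higher and 4.13% lower). For Col7a1 the difference of log2 fold changes was 3.79 (SE 0.52, adjusted p = 0.000284) and for Col6a3 it was 3.28 (SE 0.47, adjusted p = 0.000415). Col6a1, Col6a2, Col5a3, Col15a1 and Col22a1 were among the 12 as well, so each gene that rose in MSC was called for this contrast. Col22a1 passed narrowly by the edgeR quasi-likelihood test (adjusted p = 0.0488). It was scarce in WT MSC, at 0 and 1 counts, and was not tested within tumors. The 12 became 7 without WT tumor 1 (17.9%, against 8.09% of all genes). The effect in MSC minus that in bone marrow was called for 9 members, 6 higher and 3 lower (23.1%, close to the 18.8% of all genes, of which 10.8% were higher and 8.05% lower). Col5a3 had the largest of these, 4.75 (SE 0.83, adjusted p = 0.00133). Of the 6 genes that rose in MSC, Col6a2 (1.67, adjusted p = 0.0607) and Col22a1 (2.79, adjusted p = 0.276) were not called. By limma-voom this contrast was called for 6 of 39 members (15.4%, against 18.4% of all genes). The effect in tumor minus that in bone marrow was called for 0 members by edgeR, against 0.0385% of all genes (0.011% higher, 0.0275% lower). DESeq2 called 0 members for this contrast as well. Its smallest p-values belonged to Col23a1 (-3.04, adjusted p = 0.294), Col5a3 (2.25, adjusted p = 0.309), Col6a4 (-1.91, adjusted p = 0.343), Col5a1 (-0.69, adjusted p = 0.358) and Col25a1 (-2.86, adjusted p = 0.375). These contrasts share libraries with each other and with the tests within tissues. They also use 1 spread for all tissues. In that model 24.4% of all genes were called for K74R against WT MSC, against 3.34% with the MSC libraries alone.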

How the data were processed

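Per the labels' protocols, TRIzol was used for RNA and an mRNA kit for the libraries. Reads were trimmed with Trimmomatic 0.38, aligned with HISAT2 2.1.0 to GRCm38 and counted with featureCounts 1.6.0, per the submitters' processing notes; the annotation release, the strand setting and the treatment of multiply mapped reads are not stated in any source used here. The authors deposited raw counts per gene for 16 libraries. Identifiers were matched to symbols and coordinates of GENCODE M21 (GRCm38).

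Counts were tested with edgeR 4.0.16 in R 4.3.3 (quasi-likelihood test, default low-count filter, TMM scaling, Benjamini-Hochberg adjustment over all genes tested, threshold 0.05), within each tissue for genotype and in a model of all 16 libraries for tissue contrasts and interactions. CPM used TMM factors over all libraries, and lengths were the union of exons. The test was run on simulated counts drawn with the same spread for every gene. That check does not cover the unequal MSC libraries or genes with few counts. Alternatives were other scalings, filters, DESeq2 1.42.0, limma 3.58.1 (voom), a replicate block and leaving out each library. Counting intervals are exact 95% intervals and, like the floor of 3 counts, cover counting error only.

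The members, gene lists and tests were chosen with earlier results of these data known. Genes named are those called between genotypes and the other chains of their type, the 10 highest per kilobase in each tissue, the 5 smallest p-values without a call in each tissue and in each interaction, the 5 largest differences in each direction of each tissue contrast, and pairs of genes with neighbouring starts. Other collagen genes given values (among them Col1a2 and Col2a1 between genotypes, Col8a1, Col10a1 and Col18a1 in MSC) were chosen after their values were seen. Deviations of same-numbered libraries from their group means correlated at 0.28, 0.14 and -0.1 in bone marrow. The correlations were 0.03, -0.05 and 0.05 in tumor. In MSC, with 2 libraries a group, the deviations mirror each other, so the check holds only 1 value there, -0.18. No pairing was used in the main fits.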

Additional observations from a re-analysis of the deposited data

Results flagged for a closer look

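The genotype effect differed between tissues by a test of the difference itself, in a model of all 16 libraries with Benjamini-Hochberg adjustment over all genes tested by edgeR's quasi-likelihood test. MSC minus bone marrow gave 9 of 39 collagen genes (23.1%, close to the 18.8% of all genes). It gave 6 to 11 without 1 bone marrow library, against 14.2% to 18.1% of all genes, and 6 by limma-voom (15.4%, against 18.4%). The smallest p-values belonged to Col5a3 (difference of log2 fold changes 4.75, adjusted p = 0.00133), Col6a3 (2.62, adjusted p = 0.00296), Col27a1 (-2.44, adjusted p = 0.00689), Col7a1 (2.59, adjusted p = 0.0144) and Col5a1 (1.10, adjusted p = 0.0145). For Col5a3 the values in MSC were higher in K74R and those in bone marrow lower, with no overlap in either tissue. MSC minus tumor gave 12 of 39 collagen genes (30.8%, against 10.6% of all genes). It gave 7 to 9 without 1 tumor library, against 8.07% to 9.06% of all genes, with 7 without WT tumor 1. The smallest p-values belonged to Col7a1 (3.79, adjusted p = 0.000284), Col6a3 (3.28, adjusted p = 0.000415), Col15a1 (2.00, adjusted p = 0.000486), Col5a1 (1.79, adjusted p = 0.000868) and Col16a1 (1.5, adjusted p = 0.00712). Groups of 2 and 3 libraries are too small for a check of single outlying libraries.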

How the results depend on the processing

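The count of collagen genes called between genotypes depended on the filter, the tool and the libraries kept. Without the low-count filter it was 23 in MSC (53.5%, against 11.9% of all genes in that fit), 15 in tumor (2 higher, 13 lower; 34.9%, against 2.73%) and 6 in bone marrow (13.6%, against 3.07%). The interactions then gave 15 (MSC minus bone marrow; 34.1%, against 11.2%), 10 (tumor minus bone marrow; 22.7%, against 1.76%) and 19 (MSC minus tumor; 43.2%, against 7.78%). In MSC DESeq2 called 20, the model of all 16 libraries 17 and the replicate block 16 (48.5%, against 7.84% of all genes), and in tumor DESeq2 called 1 of 25 (4%, against 1.56%). The 6 genes called in MSC were among the calls of each of those MSC fits. Other settings in MSC gave fewer calls. Scaling by library size alone gave 4 (12.1%, against 2.39% of all genes) and by relative log expression 5 (15.2%, against 3.01%). A filter of at least 1 CPM gave 5 (16.1%, against 3.32%), and a robust estimate of the spread 5 (15.2%, against 2.98%). Col22a1 lost its call in 8 of 15 other settings and Col6a1 in 5. Same-numbered MSC libraries had a correlation of -0.18, and a crossed replicate block, added after seeing the data, also gave 16 (against 13.4% of all genes). Leaving out 1 library gave 0 to 5 calls in bone marrow (0.0717% to 4.49% of all genes) and 0 in tumor (0% to 0.822%). In MSC the calls changed with the library left out, and without K74R MSC 1 no gene was called. Without 1 bone marrow library MSC minus bone marrow gave 6 to 11 calls (14.2% to 18.1% of all genes). Without 1 tumor library MSC minus tumor gave 7 to 9 (8.07% to 9.06%). Tumor minus bone marrow gave 0 in every such fit (0.022% to 0.298%). MSC against bone marrow gave 28 to 29 without 1 bone marrow library (66.5% to 67% of all genes). Tumor against bone marrow gave 30 to 32 without 1 library (68.9% to 69.8%). MSC against tumor gave 26 to 27 without 1 tumor library (62.4% to 62.9%), and fewer without WT MSC 2. With library size alone the summed collagen level in K74R MSC was 25300 CPM, against 27500 CPM with TMM. Some small log2 fold changes changed sign. Over the fits without 1 library, Serpinh1 ran from -0.30 (without WT 1; -0.05 without K74R 2) to 0.56, P4ha1 from -0.03 (without K74R 2; 0.00 without WT 3) to 0.10 and Lox from -0.19 (without WT 1) to 0.70 in bone marrow. In tumor Serpinh1 ran from -0.10 to 0.15, Lox from -0.16 to 2.01 and Sparc from -0.22 to 0.18, each lowest without K74R 2, and Sparc was -0.01 by limma-voom and -0.01 with the replicate block. Col22a1 in MSC against tumor was 1.71 with K74R libraries in place of WT. The cause was not tested. With 2 MSC libraries a group, and few counts for genes such as Col22a1, the depth and number of libraries limit these calls.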
